A study of Mus musculus with 4 samples.

Results

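The genes described are 31 named genes of sterol and fatty acid synthesis, chosen by their known function and not by any measured value. They comprise 18 genes of the sterol branch, from acetyl-CoA to cholesterol, 10 genes that make, elongate and desaturate fatty acids, and 3 regulators, Insig1, Srebf1 and Srebf2. Of these, 30 were measured, among 15470 named genes tested in all. No probe mapped to Acat2, the acetoacetyl-CoA thiolase at the head of the sterol branch, so it was not measured here. The 30 genes were read by 48 probes, and each gene was followed through its brightest probe.

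MOTS-c is a peptide encoded in the mitochondrial genome. Pancreatic islet cells of 4 littermates, 60-week-old C57BL/6 mice labelled male, were dispersed and treated ex vivo with MOTS-c or a scrambled peptide, each at 10 μM for 24 h. RNA from 2 samples per group (replicates 1 and 2 of the scrambled peptide, replicates 2 and 3 of MOTS-c) was measured on 4 single-colour arrays of 1 slide. The labels give no further treatment or genetic change in either group, and p-values measure only the spread between samples of a group.

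Cells build cholesterol from acetyl-CoA through mevalonate, farnesyl pyrophosphate, squalene and lanosterol. Saturated fatty acids are built from the same acetyl-CoA through malonyl-CoA and are then lengthened by elongases and given double bonds by desaturases. SREBP transcription factors drive the genes of both branches: when membrane sterol is low, SCAP carries SREBP from the endoplasmic reticulum to the Golgi for cleavage, and INSIG proteins hold it back when sterol is plentiful. In islet beta cells these lipids enter membranes, secretory granules and signalling lipids.

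Between 61.6% and 65.0% of the 59305 gene spots on each array were well above background, and no spot was saturated. The hormone genes Ins1, Ins2, Iapp, Gcg and Sst and the granule gene Chga were well above background on all arrays. Ppy, the pancreatic polypeptide gene, was well above background on 3 arrays only, as was Slc2a2, the islet glucose transporter (log2 signal 5.23 and 5.26 with scrambled peptide, 3.81 and 4.02 with MOTS-c). All 6 proliferation markers (Mki67, Top2a, Cdk1, Ccnb1, Birc5 and Aurkb) were well above background on every array. Their log2 signals were high, from 16.13 to 16.39 for Birc5 and from 13.54 to 14.49 for Mki67, beside 15.61 to 15.89 for Fasn. For 4 Y-linked genes, none of 28 readings (7 probes on 4 arrays) was above background, while Xist was above background on all 4 arrays, which goes against the male label of the samples. The part of this in the values that follow was not tested. Many defining markers of other cell types were not well above background, as given below, and the make-up of the cells was not tested. On such arrays, fewer cells of a type and less RNA per cell cannot be told apart.

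The promoter windows of 3 genes are shown first, because they differ in the regulatory motifs found, and they were chosen after the values were seen. Among the windows given, Hmgcs1 held the only exact match to the letters used for the sterol regulatory element, the motif read by SREBP. Hsd17b7 had the lowest p-value of the list, and Elovl6 had the highest fold change. The windows are from RefSeq (GRCm38.p6), from 250 bases before to 50 bases after the transcription start, 5′ to 3′ on the gene's strand. They lie at chr13:119690101-119690400 (plus strand) for Hmgcs1, chr1:169969156-169969455 (minus strand) for Hsd17b7 and chr3:129532136-129532435 (plus strand) for Elovl6. Capitals mark matches, on either strand, to the sterol regulatory element TCACNCCAC, the CCAAT box CCAAT, the E-box CACGTG and the GC box GGGCGG. Matches that overlap would each be counted.
Hmgcs1: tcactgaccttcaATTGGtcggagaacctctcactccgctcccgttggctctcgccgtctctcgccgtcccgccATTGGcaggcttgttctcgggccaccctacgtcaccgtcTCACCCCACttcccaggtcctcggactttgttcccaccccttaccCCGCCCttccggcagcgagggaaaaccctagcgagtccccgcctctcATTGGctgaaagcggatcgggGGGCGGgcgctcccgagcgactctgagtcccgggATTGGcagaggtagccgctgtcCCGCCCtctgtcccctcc
Hsd17b7: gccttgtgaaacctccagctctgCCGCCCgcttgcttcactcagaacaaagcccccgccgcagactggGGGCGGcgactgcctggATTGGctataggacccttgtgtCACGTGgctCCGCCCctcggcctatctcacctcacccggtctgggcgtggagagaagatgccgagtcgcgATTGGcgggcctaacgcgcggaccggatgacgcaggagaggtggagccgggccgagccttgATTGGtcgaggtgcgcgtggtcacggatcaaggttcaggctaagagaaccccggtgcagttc
Elovl6: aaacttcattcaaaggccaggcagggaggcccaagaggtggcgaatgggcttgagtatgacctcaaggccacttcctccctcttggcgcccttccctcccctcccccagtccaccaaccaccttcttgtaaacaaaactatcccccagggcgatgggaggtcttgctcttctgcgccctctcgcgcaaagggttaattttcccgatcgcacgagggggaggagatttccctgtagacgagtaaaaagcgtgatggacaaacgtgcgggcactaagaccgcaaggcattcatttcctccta
The Hmgcs1 window held 1 sterol regulatory element, 4 CCAAT boxes and 3 GC boxes. The Hsd17b7 window held 3 CCAAT boxes, 1 E-box and 3 GC boxes. The Elovl6 window held no match to these letters.

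A window was given for 25 of the 31 genes (30 windows, since some genes have several starts). Fdps, Fdft1, Sqle, Scd1, Scd2 and Fads1 had no entry. CCAAT was present in 22 of the 30 windows (73.3%), against 37.4% of all 32851 windows. The GC box was present in 21 (70%), against 35.7% of all windows. The E-box was present in 5 windows (16.7% against 7.15%), those of Hsd17b7, Sc5d, Dhcr7, Insig1 and Elovl5. The sterol regulatory element was present in 1 (3.33% against 1.24%). These are matches of letters in a short window and describe no binding.

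With MOTS-c, none of the 30 genes passed the test at an adjusted p under 0.05 (limma, Benjamini-Hochberg over 35087 probes), and the background over all probes was 0%. On simulated data with changes of 1 log2 unit set in 200 of 35084 probes, 0% were recovered after adjustment. In that setting, a lack of calls therefore does not show a lack of changes of this size. At an unadjusted p under 0.05 there was 1 gene, Hsd17b7, and it was higher. Over all probes, 3.03% were higher and 4.82% lower at that level, 2755 probes in all. After the same adjustment, the methods' t-test called 1 of all probes, and 0 probes of these genes. Through its brightest probe, no gene reached a 1.5-fold difference, against 5.24% of all probes, dim ones among them. The dimmer Elovl5 probe had a log2 fold change of 0.59. The log2 fold change (MOTS-c minus scrambled) was above 0 for 19 genes and below 0 for 11, where 52.9% of all probes and 49.6% of brightest probes were above 0. It was smaller than its own standard error for 22 genes (73.3%), against 56.8% of all probes.

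Non-overlap of the groups was also counted. The MOTS-c arrays were both above the scrambled arrays for Mvk and Hsd17b7, 2 of 30 genes, where 19.4% of all probes and 19.8% of the brightest probes of each gene were. They were both below for Pmvk, Acly and Acaca, 3 of 30 genes, where 18.6% of all probes and 22.7% of brightest probes were. Neither count was above its background. An exact two-sided permutation test of 2 arrays against 2 cannot give a p under 0.333.

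The intervals of the fold changes limit how far the groups could differ. The 95% interval (limma) lay within 1.5-fold in either direction for 16 of 30 genes (53.3%, against 50.2% of all probes). It lay within 2-fold for 27 genes (90.0%, against 86.4%), and the exceptions were Elovl6, Scd1 and Scd2.

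**Figure D1:**
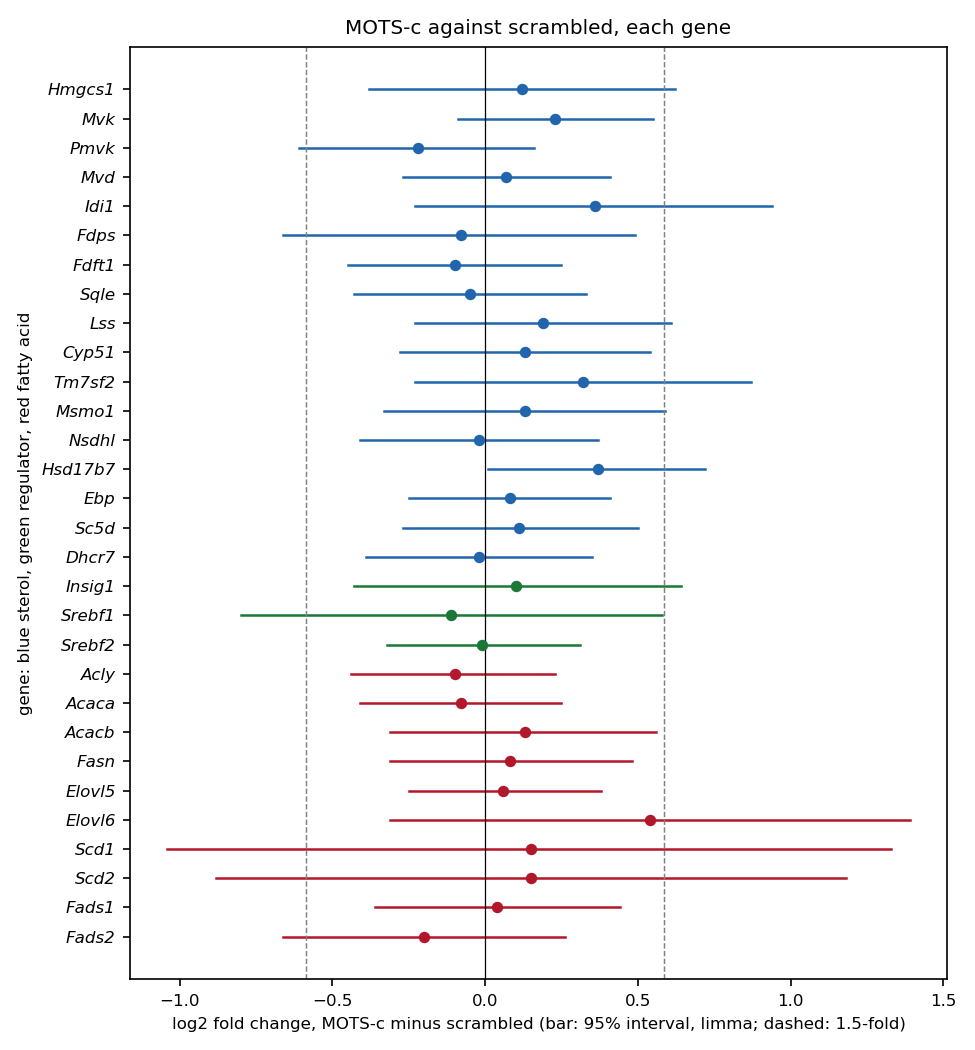
Log2 fold change of each gene (points, MOTS-c minus scrambled, brightest probe) with its 95% interval from limma (bars), and dashed lines at 1.5-fold. All intervals but that of Hsd17b7 include 0, and those of Elovl6, Scd1 and Scd2 are the widest.

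The early sterol branch showed small differences of both signs. Hmgcs1, the HMG-CoA synthase, had log2 signals of 14.46 and 14.06 on scrambled replicates 1 and 2, against 14.27 and 14.49 on the MOTS-c arrays (replicates 2 and 3). The groups overlapped, and the log2 fold change was 0.12 (SE 0.19). Mvk, the mevalonate kinase, had 14.16 and 14.06 with scrambled peptide and 14.32 and 14.36 with MOTS-c. Both MOTS-c arrays were above both scrambled arrays, by 0.23 on average (SE 0.12, limma adjusted p = 0.729), while the other Mvk probe had a log2 fold change of 0.00.

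Pmvk, the phosphomevalonate kinase that acts next, went the other way, with 14.80 and 14.66 with scrambled peptide and 14.62 and 14.39 with MOTS-c. On the log2 scale, the difference was -0.22 (SE 0.15, limma adjusted p = 0.770), and its other probe gave -0.09. Mvd, the decarboxylase that ends the mevalonate steps, had signals between 10.67 and 10.86 on the 4 arrays and a log2 fold change of 0.07. Neighbouring enzymes of this short chain therefore had values on either side of 0.

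Idi1, which isomerizes isopentenyl pyrophosphate, had 13.19 and 12.73 with scrambled peptide and 13.14 and 13.49 with MOTS-c. MOTS-c replicate 2 lay below scrambled replicate 1, and the log2 fold change of 0.36 (SE 0.22) had a limma adjusted p of 0.760. Fdps, the farnesyl pyrophosphate synthase, had 15.31 and 14.94 with scrambled peptide and 14.83 and 15.25 with MOTS-c. Its 2 groups covered nearly the same range, with a log2 fold change of -0.08 (SE 0.22).

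The squalene steps differed little. Fdft1, the squalene synthase, had a log2 fold change of -0.10 (SE 0.13), and Sqle, the squalene epoxidase, had -0.05 (SE 0.14). Lss, which closes squalene epoxide into lanosterol, had 12.02 and 11.89 with scrambled peptide and 12.00 and 12.30 with MOTS-c. On the log2 scale, the difference was 0.19 (SE 0.16), and its other probes gave 0.15 and 0.22.

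Among the enzymes that turn lanosterol into cholesterol, Hsd17b7, the sterol ketoreductase that acts in the removal of the methyl groups, had the lowest p of the 30 genes. Its log2 signals were 12.28 and 12.08 with scrambled peptide and 12.55 and 12.54 with MOTS-c. The groups did not overlap, and the log2 fold change was 0.37 (SE 0.14, 95% interval 0.01 to 0.72, 1.29-fold). By limma its unadjusted p was 0.0459 and its adjusted p was 0.625. A second, dimmer probe of Hsd17b7 had 9.96 and 9.54 with scrambled peptide and 10.20 and 10.21 with MOTS-c. It gave a log2 fold change of 0.45 (SE 0.18, limma adjusted p = 0.655), again without overlap.

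Nsdhl, the decarboxylating dehydrogenase that works with Hsd17b7 and Msmo1 on the same methyl groups, had a log2 fold change of -0.02 (SE 0.15). Msmo1, the methyl sterol oxidase, had 0.13 (SE 0.18), and Cyp51, the lanosterol demethylase, also had 0.13 (SE 0.16). The groups of each overlapped, where those of Hsd17b7 did not. The difference between these genes was not tested.

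Tm7sf2, a sterol reductase, had 12.34 and 12.07 with scrambled peptide and 12.30 and 12.75 with MOTS-c. On the log2 scale, the difference was 0.32 (SE 0.21, limma adjusted p = 0.769), and the other probe gave 0.27. The signal of MOTS-c replicate 3 was above the rest, and MOTS-c replicate 2 lay between the scrambled arrays. Ebp, the sterol isomerase, and Sc5d, the sterol desaturase, had log2 fold changes of 0.08 and 0.11, and Dhcr7, the last reductase of its route, had -0.02.

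Over the 17 measured genes of the sterol branch, the median log2 fold change was 0.11 (range -0.22 to 0.37), with 11 values above 0 and 6 below. Over all probes tested the median was 0.01. The SD of the branch median between arrays of a group was 0.15, which is larger than the median itself.

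The 3 regulators all had overlapping groups. Srebf1, which encodes the SREBP that mainly serves fatty acid genes, had 13.61 and 13.09 with scrambled peptide and 13.00 and 13.48 with MOTS-c, a log2 fold change of -0.11 (SE 0.26). Srebf2, which encodes the SREBP that mainly serves sterol genes, had 9.73 and 9.69 with scrambled peptide and 9.67 and 9.73 with MOTS-c, a log2 fold change of -0.01 (SE 0.12). Insig1, the sterol-regulated retention protein and itself an SREBP target, had 9.51 and 9.02 with scrambled peptide and 9.30 and 9.44 with MOTS-c. Its MOTS-c values lay between its scrambled values, with a log2 fold change of 0.10 (SE 0.20). These are transcript signals, and the processing of SREBP protein was not measured on the arrays.

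In the fatty acid branch, the enzymes of the core chain stayed within a narrow range. Acly, which makes cytosolic acetyl-CoA from citrate, had 17.32 and 17.17 with scrambled peptide and 17.15 and 17.15 with MOTS-c. The MOTS-c arrays lay just below the nearer scrambled array, and the log2 fold change was -0.10 (SE 0.13, limma adjusted p = 0.885). The other, dimmer probe gave -0.30 (SE 0.13, limma adjusted p = 0.685), also without overlap. Acaca, the acetyl-CoA carboxylase of the cytosol, had 12.33 and 12.19 with scrambled peptide and 12.18 and 12.18 with MOTS-c. Its log2 fold change of -0.08 (SE 0.13) had other probes between -0.08 and 0.12, so the lack of overlap was not shared by its probes in 1 direction.

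Fasn, the fatty acid synthase, had 15.89 and 15.61 with scrambled peptide and 15.83 and 15.85 with MOTS-c, a log2 fold change of 0.08 (SE 0.15). Both MOTS-c values lay between the scrambled values. Acacb, the carboxylase at mitochondria, had 0.13 (SE 0.17) with its brighter probe and -0.23 with the other, and signals of 6.73 to 7.08.

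The elongases and desaturases had the widest spread. Elovl6, which lengthens palmitate, had 8.30 and 7.66 with scrambled peptide and 8.19 and 8.85 with MOTS-c. Its log2 fold change of 0.54 (SE 0.32, 1.45-fold) was the highest of the list, with a 95% interval of -0.31 to 1.39 and a limma adjusted p of 0.751. MOTS-c replicate 2 lay below scrambled replicate 1, so the groups overlapped. Elovl5, which lengthens polyunsaturated fatty acids, had 0.06 (SE 0.12) with its brightest probe, while its other probe, well above background on 3 arrays, gave 0.59 (SE 0.28).

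Scd1 and Scd2, the desaturases that make monounsaturated fatty acids, differed more between arrays of a group than between groups. Scd1 had 11.24 and 10.37 with scrambled peptide and 10.45 and 11.45 with MOTS-c, a log2 fold change of 0.15 (SE 0.45, 95% interval -1.04 to 1.33). Scd2 had 15.81 and 15.07 with scrambled peptide and 15.16 and 16.02 with MOTS-c, a log2 fold change of 0.15 (SE 0.39, 95% interval -0.88 to 1.18). Scrambled replicate 1 and MOTS-c replicate 3 were the high arrays for both genes. Whether the probes of these related genes read each other's transcripts was not tested.

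Fads1 and Fads2, the desaturases of polyunsaturated fatty acid synthesis, had log2 fold changes of 0.04 (SE 0.15) and -0.20 (SE 0.17), with overlapping groups. Their other probes gave -0.06 and 0.06. Over the 10 genes of the fatty acid branch the median was 0.07 (range -0.20 to 0.54), with 7 values above 0 and 3 below. Its SD between arrays of a group was 0.14. The sign of this median depended on single arrays: it was -0.10 without scrambled replicate 2, -0.08 without MOTS-c replicate 3 and 0.18 without scrambled replicate 1. For the sterol branch, leaving out scrambled replicate 2 gave -0.02 and leaving out scrambled replicate 1 gave 0.24.

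**Figure D2:**
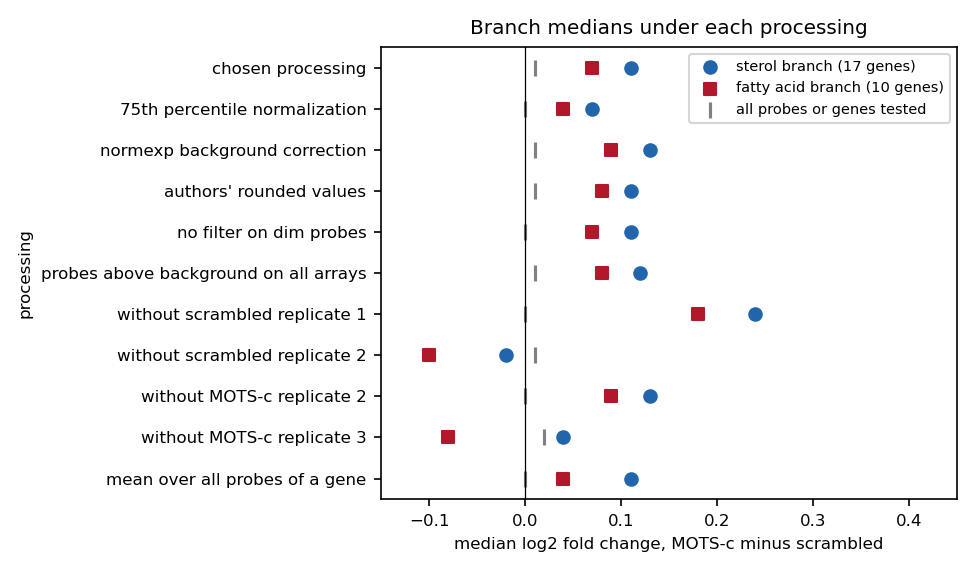
Median log2 fold change (MOTS-c minus scrambled) of the sterol branch (circles) and of the fatty acid branch (squares) under each processing and with each array left out, beside the median of all probes or genes tested (bars). With all 4 arrays the medians stayed between 0.04 and 0.13, and the fatty acid median ran from -0.10 to 0.18 when single arrays were left out.

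The arrays of a group differed from each other, and the genes of the list did so together. This was seen after the values were known and is given as a description. Scrambled replicate 1 was above scrambled replicate 2 for 28 of the 30 genes (93.3%), against 49.3% of all probes. The exceptions were Mvd and Elovl5. MOTS-c replicate 3 was above MOTS-c replicate 2 for 24 genes (80.0%), against 43.5% of all probes, and these 24 were all among the 28. Both held for 27.3% of all probes. The count within the MOTS-c group was 19 under a 75th percentile normalization and 20 after the normexp background correction, and that within the scrambled group was 27 and 28. The shares of all probes under these alternatives were not counted, so the size of the pattern beside all probes is known for the chosen processing only.

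The median difference over the 30 genes was 0.24 within the scrambled group and 0.11 within the MOTS-c group on the log2 scale, against 0.00 and -0.04 over all probes. The difference within the scrambled group was larger than the size of the fold change with treatment for 24 of 30 genes (80%), against 54.3% of all probes. That within the MOTS-c group was larger for 20 genes (66.7%), near the 59.9% of all probes. Scd1 differed by 0.87 within the scrambled group and by 1 within the MOTS-c group. In the same order, Scd2 differed by 0.74 and 0.86, Elovl6 by 0.64 and 0.66, and Srebf1 by 0.52 and 0.48. Idi1 differed by 0.46 and 0.35 and Fdps by 0.37 and 0.42. Hsd17b7 had smaller differences, with 0.21 within the scrambled group and -0.01 within the MOTS-c group. Other genes were like it, such as Sc5d (0.27 and 0), Fasn (0.28 and 0.02) and Dhcr7 (0.21 and -0.11).

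The 18 further probes, of 15 of the genes, gave 15 that were higher on scrambled replicate 1 and 10 that were higher on MOTS-c replicate 3, with 9 in both. They are further probes on the same 4 RNA samples and not further samples.

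**Figure D3:**
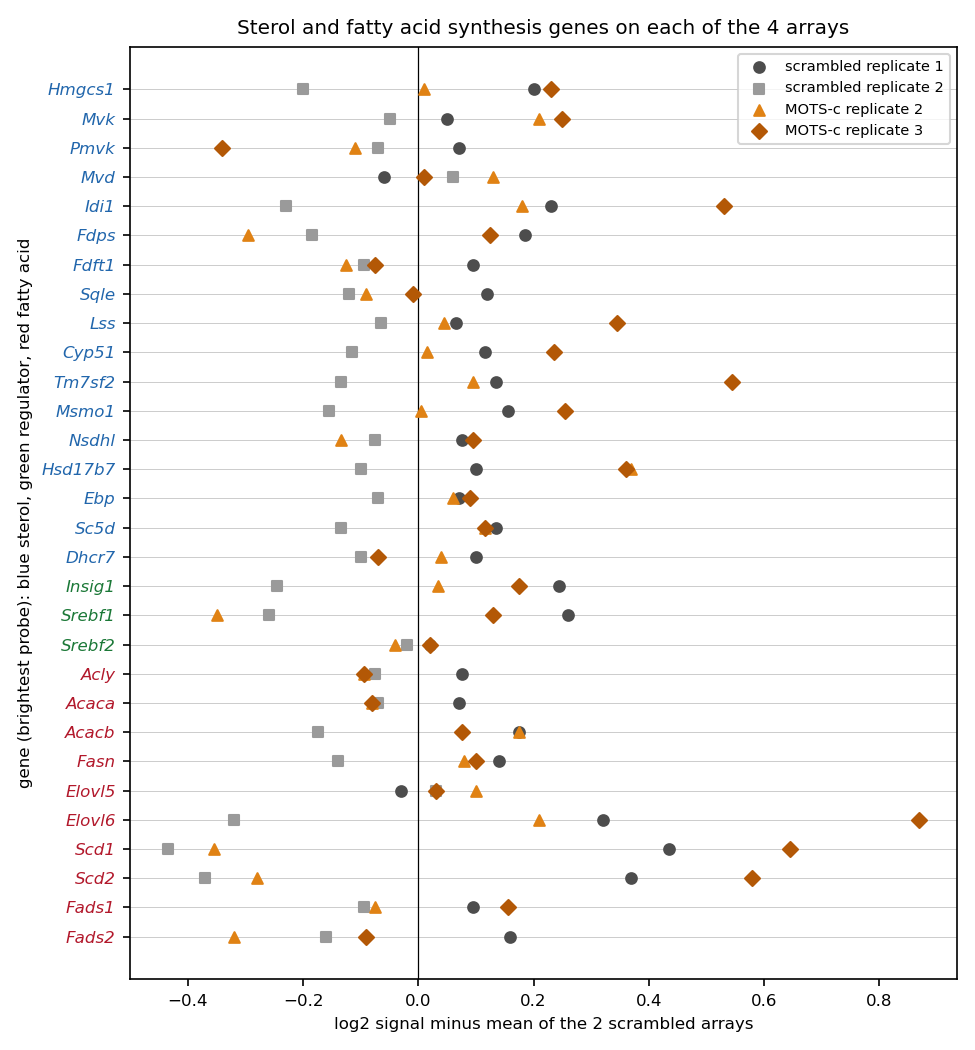
Log2 signal of each gene's brightest probe on each of the 4 arrays, less the mean of the 2 scrambled arrays. Scrambled replicate 1 (dark circles) is above scrambled replicate 2 (grey squares) for 28 of 30 genes, and MOTS-c replicate 3 (diamonds) is above MOTS-c replicate 2 (triangles) for 24.

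**Figure D4:**
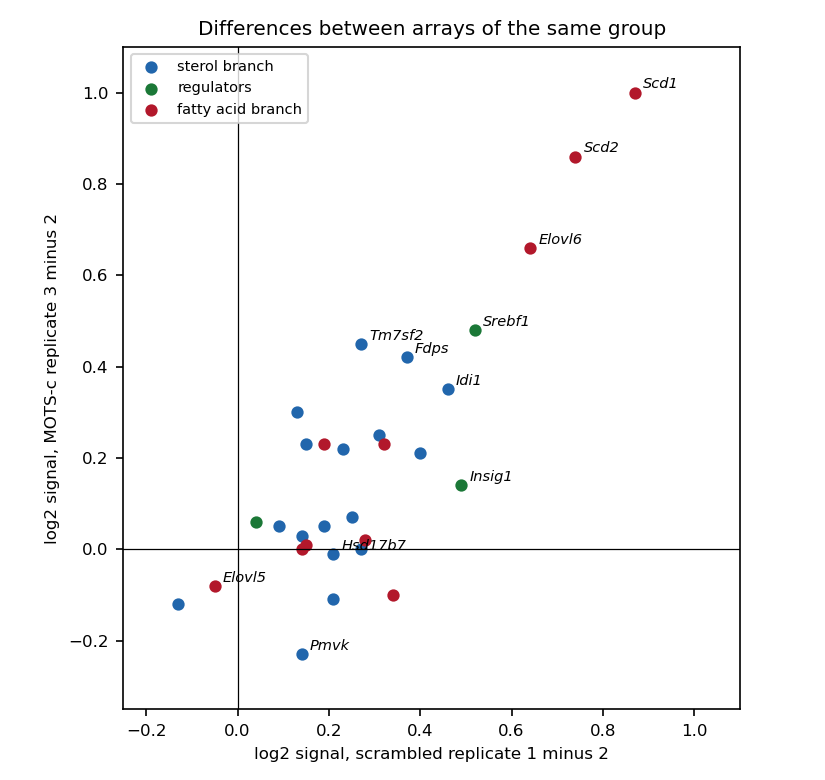
Log2 signal difference between scrambled replicates 1 and 2 (horizontal) and between MOTS-c replicates 3 and 2 (vertical), a point for each of the 30 genes. Scd1, Scd2, Elovl6 and Srebf1 are at the upper right, with 0.74 and 0.86 for Scd2.

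Summed signals of other cells' markers also differed between the same arrays. The summed signal of the 4 measured acinar markers of 9 listed was 3660 and 4010 on scrambled replicates 1 and 2, and 2590 and 2090 on MOTS-c replicates 2 and 3. The 4 ductal markers of 6 summed to 198 and 297, then 249 and 179, and the 2 mesenchymal markers of 7 to 233 and 326, then 265 and 215. The 3 endothelial markers of 6 summed to 1600 and 2080, then 2010 and 1670, nearly all of it Plvap, while Pecam1 and Vwf went the other way on both pairs of arrays.

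The 3 macrophage and leukocyte markers of 6 summed to 2710 and 4330, then 3500 and 2700, and the 4 adipocyte markers of 6 to 347 and 463, then 424 and 335. In each of these 6 lists the sum was lower on scrambled replicate 1 than on 2 and lower on MOTS-c replicate 3 than on 2. The sums are of linear signals, so the brightest gene can carry them. On scrambled replicate 1 Cela1 had a log2 signal of 11.77, against 5.29 to 6.03 for the other acinar markers. Csf1r had 11.22 there, against 8.29 for Cd68 and 3.90 for Cd14. Gene by gene the order of the arrays was mixed. Of the 20 measured markers, 16 were lower on scrambled replicate 1 than on 2 and 14 were lower on MOTS-c replicate 3 than on 2, with 12 in both. The exceptions included Pecam1 and Vwf in both groups, Muc1 and Plin1 within the scrambled group, and Ctrb1, Cd14 and Lep within the MOTS-c group. The other 4 and 6 of the 20 were higher, where 49.3% and 43.5% of all probes were higher on scrambled replicate 1 and on MOTS-c replicate 3. Cd14 was not well above background on the scrambled arrays. Of the defining markers, Prss1, Amy2b, Krt19, Col1a1, Pdgfrb, Cdh5, Kdr, Ptprc, Adgre1 and Adipoq were not well above background on at least 2 arrays. The 6 proliferation markers summed to 157000 and 136000 with scrambled peptide and 136000 and 164000 with MOTS-c. Of these 6 markers, 5 were higher on scrambled replicate 1 than on 2 (all but Cdk1), against 49.3% of all probes. All 6 were higher on MOTS-c replicate 3 than on 2, against 43.5% of all probes. The sum of the 12 endocrine markers was 1270000 and 1360000, then 1270000 and 1270000. The part of any of these in the differences between arrays was not tested.

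Lists of neighbouring pathways were read from the same fit, each as a count beside the 3.03% higher and 4.82% lower of all probes. None of the 12 genes that process or degrade SREBP had an unadjusted p under 0.05, and their median log2 fold change was 0.00. Mbtps2, a protease that releases SREBP, had 0.29 (SE 0.19), and Scap, its escort, had 0.18 (SE 0.14). Leaving out single arrays moved Mbtps2 between 0.11 and 0.48, the ends set by MOTS-c replicates 3 and 2, and Scap between 0.08 and 0.28. Of 14 genes for sterol sensing, export and storage, 12 were measured, none at that level, with a median of 0.05. Soat1, which esterifies cholesterol, had -0.35 (SE 0.19), and Npc1, which moves cholesterol out of lysosomes, had 0.30 (SE 0.16). Without MOTS-c replicate 3 or 2, Soat1 was -0.13 or -0.58 and Npc1 was 0.47 or 0.13.

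The 12 genes of isoprenoid branches also held none at that level, with a median of 0.05. Pdss1, of ubiquinone side chain synthesis, had 0.27 (SE 0.15), and Pggt1b, of protein geranylgeranylation, had 0.16 (SE 0.13). Leaving out single arrays moved Pdss1 between 0.12 and 0.41 and Pggt1b between 0.10 and 0.23.

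Of 10 genes that supply acetyl-CoA, citrate and NADPH, 9 were measured, and 1 of them was lower at an unadjusted p under 0.05. Acss1, the mitochondrial acetyl-CoA synthetase, had 7.40 and 7.44 with scrambled peptide and 6.62 and 6.31 with MOTS-c. The groups did not overlap, and the log2 fold change was -0.95 (SE 0.15, limma adjusted p = 0.474). After the normexp background correction it was -0.57. The median of the list was 0.03.

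Of 15 further elongation and desaturation genes, 14 were well above background on all arrays, none of them at that level, with a median of 0.04. The last, Elovl3, an elongase of very long chains, had 4.34 and 4.20 on the MOTS-c arrays and was not well above background on the scrambled arrays (measured 3.20 and 2.69). It entered the fit only through the MOTS-c arrays, so its test is not used here. With the scrambled arrays set at the lowest signal among probes well above background on each array, the MOTS-c signal was 1.16-fold theirs. A probe not well above background can lie above that lowest signal, so this is no strict lower bound. As the filter was passed through the MOTS-c arrays alone, no direction is read from it.

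Among the 14 genes of fatty acid activation and glycerolipid synthesis, 2 were higher at that level, with a list median of 0.16. Acsl1, which activates long-chain fatty acids, had 11.31 and 11.22 with scrambled peptide and 11.83 and 11.72 with MOTS-c, a log2 fold change of 0.51 (SE 0.13, limma adjusted p = 0.531). The other probe of Acsl1 gave 0.22, and that of Pnpla3 gave 0.53. Pnpla3, a lipid droplet acyl hydrolase, had 5.29 and 5.35, then 5.61 and 5.76, a log2 fold change of 0.37 (SE 0.13, limma adjusted p = 0.600). After the normexp background correction Pnpla3 was 0.23. No gene of these 6 lists passed the adjusted threshold.

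The share of genes higher on both scrambled replicate 1 and MOTS-c replicate 3 ran from 20.0% to 35.7% in these 6 lists, beside 80.0% of the 30 synthesis genes and 27.3% of all probes. The lowest share was that of the further elongation and desaturation genes, and the highest was that of fatty acid activation and glycerolipid synthesis. The order was not particular to the synthesis genes. Of the 6 proliferation markers, 5 were higher on scrambled replicate 1 than on 2, and all 6 were higher on MOTS-c replicate 3 than on 2.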

How the data were processed

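RNA was labelled with Cy3 and hybridized to Agilent arrays, and the authors extracted the spots with Feature Extraction. The deposited intensity values carry a background correction made array by array, with no step to align the arrays. A second deposited table holds the same intensity values rounded, with ratios to the scanner values between 0.995 and 1.005. Here, control spots (3671 per array) and outlier spots (96 to 131) were left out, values were put on the log2 scale, and repeated spots were averaged per probe. A probe was kept where 2 or more of the 4 arrays showed it well above background, and the arrays were quantile normalized. limma (version 3.58.1, R 4.3.3) compared the groups over 35087 probes with Benjamini-Hochberg adjustment. Precision is limited by the number of arrays. On simulated data, changes of 0.585, 1 and 2 log2 units were set in 200 of 35084 probes. They were recovered at an unadjusted p under 0.05 in 74%, 91% and 99%, and after adjustment in 0%, 0% and 54.5%.

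Groups came from the treatment labels. Names of 32994 probes came from their accessions and a RefSeq gene table (GRCm38.p6). The methods' Flag A is not defined and was not applied. All genes of the list were named, through the brightest probe, and of the other pathway lists those at an unadjusted p under 0.05, or otherwise the 2 largest differences. The list was set by known function and not by any measured value. Earlier results of these data were known when it and the other lists were chosen. The alternatives were a 75th percentile normalization, normexp with an offset of 50, the rounded table, other filters on dim probes, the mean over probes, limma with a trend, the methods' t-test, and each array left out.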

Additional observations from a re-analysis of the deposited data

How the results depend on the processing

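With all 4 arrays kept, the log2 fold changes of the 30 genes kept their direction in 178 values under the alternatives and reversed in 2: as a mean over all probes of the gene, Acacb was -0.05 and Fads1 -0.01. No gene passed the adjusted threshold by limma, and the methods' t-test called 1 probe of the whole array where limma called 0. The number of genes at an unadjusted p under 0.05 was 1, and it was 0 with a 75th percentile normalization, 2 without a filter on dim probes, 2 with a trend and 0 to 2 when single arrays were left out. The number whose groups did not overlap was 5, and it was 8 after the normexp correction. It was 14 to 22 when an array was left out, since a lone array overlaps less often. For non-overlap and for an unadjusted p under 0.05, the shares of all probes were counted for the chosen processing only. Whether the counts under the alternatives depart from those of all probes was therefore not tested. Leaving out an array moved the sterol median between -0.02 and 0.24 and the fatty acid median between -0.10 and 0.18. It turned the direction for 15 genes, with log2 fold changes of -0.08 to 0.32 for Hmgcs1, -0.29 to 0.13 for Fdps, -0.17 to 0.07 for Sqle, -0.03 to 0.29 for Msmo1 and -0.13 to 0.10 for Nsdhl. The ranges were -0.02 to 0.25 for Sc5d, -0.12 to 0.09 for Dhcr7, -0.14 to 0.35 for Insig1, -0.37 to 0.15 for Srebf1 and -0.04 to 0.02 for Srebf2. They were -0.04 to 0.30 for Acacb, -0.06 to 0.22 for Fasn, -0.35 to 0.65 for Scd1, -0.28 to 0.58 for Scd2 and -0.07 to 0.16 for Fads1. The other 15 genes kept their direction, with Hsd17b7 at 0.26 to 0.47 and Elovl6 at 0.21 to 0.87. The cause was not tested. A lone array was assumed to vary like the other group. No paired analysis was possible because the groups share only replicate number 2. The counts of genes that differ between arrays of a group were added after the data were seen. The dim signals of Elovl3 and Slc2a2 limit what their fold changes show.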

Other observations

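Outside the 30 genes, a few lipid genes of the other lists were also high on scrambled replicate 1 and MOTS-c replicate 3. They are examples chosen after their values were seen, other genes such as Scd3 and Acsl3 had the same order, and no test was made. In these 6 lists, 20.0% to 35.7% of genes were higher on both arrays, near the 27.3% of all probes. Abca1, the cholesterol exporter, had log2 signals of 8.88 and 8.32 on scrambled replicates 1 and 2, against 8.21 and 9.03 on the MOTS-c arrays (replicates 2 and 3). Abcg1, another sterol exporter, had 10.91 and 10.44, then 10.60 and 11.08. Acsl4, which activates polyunsaturated fatty acids, had 13.34 and 12.68, then 13.11 and 13.86. This was the brightest of 3 Acsl4 probes, with a log2 fold change of 0.47, where the others gave 0 to 0.02. For each of these genes both high arrays were above both low arrays, as they were for Scd1 and Scd2.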
